A study of Rattus norvegicus with 9 samples.

Results

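Glial marker genes were followed in rat cortical neuron cultures, as a measure of which glial transcripts accompany the neurons and whether their levels moved after the sodium channel blocker was removed. The genes were the astrocyte markers Gfap, S100b, Aqp4, Slc1a2 and Slc1a3, the oligodendrocyte markers Mbp and Mog, and the microglial markers Cx3cr1 and Aif1. All probes that the scanner files name for these 9 genes were taken, which gave 13 of the 41012 probes on the array, for 9 of its 35561 gene names. Per the labels' protocols, cortices of prenatal rat pups were dissociated, kept in Neurobasal medium with a serum-free supplement (B27 or NS21), and harvested on days 11 to 15. All 9 samples came from cells given tetrodotoxin (TTX, a blocker of voltage-gated sodium channels that silences action potentials) for 48 h. The 3 groups of 3 arrays differ in what followed: TTX was left on (TTX), or removed with 3 washes in regular medium and RNA collected 15 min (W15) or 45 min (W45) later. The labels call the cells mature neurons, do not say whether dividing cells had been removed, and do not state that replicates are separate cultures, so the p-values measure only the spread between these arrays, which may be technical. Cultures never exposed to TTX are not analysed here, so no level below can be set against an untreated culture.

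Astrocytes hold glial fibrillary acidic protein in their intermediate filaments, take up synaptically released glutamate through Slc1a2 (GLT-1) and Slc1a3 (GLAST), and pass water through the channel Aqp4. Oligodendrocytes arise from precursor cells that also divide in culture, and make myelin with Mbp as a main protein and Mog on its outermost surface. Microglia are the resident macrophages of the brain and carry the fractalkine receptor Cx3cr1 and the actin-binding protein Aif1 (Iba1). In neuron cultures from embryonic cortex, astrocytes and oligodendrocytes come from progenitors that are present at plating.

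Each array reported 1 colour, and every value below is the log2 signal relative to the 75th percentile of that array, so that a value above 0 places a probe among the brightest on its array. A level is comparable between arrays for the same probe only, since probes differ in how well they hybridise. The 75th percentile lay between 1563 and 2526 signal units, 72.4 to 77.9% of probes on an array were well above background, and arrays of 1 group correlated at r = 0.984 to 0.996. The arrays lay on 3 slides. Slide 1 held 1 array of each group, slide 2 held 2 TTX arrays, and slide 3 held 2 W15 and 2 W45 arrays. Of all probes, 68.6% were above background on all 9 arrays and 16.9% on none.

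Of the 13 probes, 9 were above background on all 9 arrays, 2 on some and 2 on none. The probes below are shown in full, since the letters decide what they can hybridise to. The microglial probes are those never above background. The second Mbp probe is the one whose 60 bases cover 1939 bases of the genome, so its transcript target is spliced, and the Mog probe is the one that gave the lowest adjusted p of any alternative analysis.
Mbp A_44_P334799, chr18:79117549-79119487, plus strand: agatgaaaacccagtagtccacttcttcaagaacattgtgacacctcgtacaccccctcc
Mog A_44_P397725, chr20:1610278-1610337, plus strand: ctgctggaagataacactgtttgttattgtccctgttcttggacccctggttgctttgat
Cx3cr1 A_44_P372587, chr8:125053829-125053888, minus strand: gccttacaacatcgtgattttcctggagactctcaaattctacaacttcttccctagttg
Aif1 A_44_P421534, chr20:3715789-3716370, plus strand: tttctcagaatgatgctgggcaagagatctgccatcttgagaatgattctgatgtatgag
Coordinates are those of the scanner files, on build rn3. The Aif1 probe also covers more of the genome, 582 bases, than its own length. GC content was 48.33% for the Mbp probe, 45% for the Mog probe and 41.67% for both microglial probes. The part of composition in detection was not tested.

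Gfap, the intermediate filament of astrocytes, was above background on every array. Its probe (A_44_P464502, chr10:92075205-92075264, minus strand) is printed at 10 spots per array, whose SD within an array ran from 0.0249 to 0.156. The TTX arrays read -0.11, -1.06 and -0.34 for replicates 1, 2 and 3. The W15 arrays read -0.07, -0.88 and -0.75 in the same order. The W45 arrays read 0.01, -1.25 and -0.66. The groups overlapped widely, and in each group replicate 1 was the highest and replicate 2 the lowest. Means were -0.50 ± 0.49 in TTX, -0.56 ± 0.43 in W15 and -0.63 ± 0.63 in W45 (SD, n = 3 each), and the neighbours in that order did not differ beyond their spread. These are bulk RNA samples, in which fewer cells of a type and less RNA per cell cannot be told apart.

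S100b, a calcium-binding protein of astrocytes that oligodendrocyte-lineage cells also make, was near the detection limit (A_43_P15530, chr20:12792126-12792185, minus strand, 10 spots). TTX arrays read -4.84, -6.92 and -6.00, all above background. W15 arrays read -5.20, -7.36 and -5.54, and W45 arrays read -4.93, -7.46 and -6.12. Replicate 2 of W15 and replicate 2 of W45 were not well above background, so their values are bounds. The probe entered the test through the TTX group alone. Spot SDs reached 1.15 on W45 replicate 3, against 0.189 at the lowest, so single arrays of this gene are less certain than those of Gfap. Group means were -5.92 ± 1.05, -6.03 ± 1.16 and -6.17 ± 1.27 (TTX, W15 and W45, SD, n = 3), differences far smaller than the spread.

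Aqp4, the water channel of astrocyte endfeet, was above background on all arrays (A_44_P448461, chr18:6628415-6628474, minus strand, 10 spots). TTX arrays read -1.72, -2.12 and -2.50. W15 arrays read -2.04, -3.03 and -2.66, and W45 arrays read -2.63, -2.32 and -2.06. The means were ordered TTX (-2.12 ± 0.39), W45 (-2.33 ± 0.28) and W15 (-2.58 ± 0.50) from high to low (SD, n = 3), with overlap between all of them. No replicate number was lowest throughout for this gene, unlike Gfap. Its 10 spots agreed closely on 7 arrays (SD of at most 0.0824) but spread to 0.418 and 0.433 on W45 replicates 2 and 3, so the W45 values carry more measurement error.

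The glutamate transporter Slc1a2 has probes for 2 transcript records. The probe for the main record (A_44_P545654, chr3:87884789-87884848, plus strand) read -1.11, -1.15 and -1.09 in TTX, -1.07, -0.98 and -0.98 in W15, and -0.86, -0.95 and -1.0 in W45. All W15 and all W45 arrays lay above all TTX arrays, in a range of 0.29 over the 9 arrays, the narrowest of the 11 probes tested. The other probe (A_44_P226231, chr3:87889461-87889520, plus strand, 10 spots) is annotated in the files with a splice variant called GLT1a. It read -5.72, -6.02 and -5.93 in TTX, -5.86, -6.13 and -6.15 in W15, and -5.78, -6.13 and -6.63 in W45, the last of which was not well above background. Here the groups overlapped and the means went the other way, from -5.89 ± 0.15 in TTX to -6.18 ± 0.42 in W45 (SD, n = 3).

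Slc1a3, the transporter that also marks astrocyte precursors and radial glia, had both of its probes above the 75th percentile of every array. Probe A_42_P533183 (chr2:58198652-58198711, minus strand) read 5.91, 6.16 and 5.88 in TTX, 6.02, 5.98 and 5.90 in W15, and 6.19, 5.68 and 5.65 in W45. Probe A_44_P167719 (chr2:58199114-58199173, minus strand) read 3.76, 3.85 and 3.68 in TTX, 3.86, 3.99 and 3.81 in W15, and 3.93, 4.07 and 3.91 in W45. On the second probe every W45 array lay above every TTX array, while on the first the groups overlapped and W45 had the lowest mean.

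Mbp, the myelin basic protein, was above background on all arrays with both probes. Probe A_43_P11782 (chr18:79129183-79129242, plus strand) read -0.22, -0.95 and -0.12 in TTX, 0.05, -0.80 and -0.19 in W15, and 0.04, -0.90 and 0.10 in W45. The spliced probe shown above read -2.01, -3.05 and -1.98 in TTX, -1.83, -2.88 and -2.08 in W15, and -1.83, -2.97 and -2.14 in W45. On both probes replicate 2 was lowest in all 3 groups, below every array of replicates 1 and 3, and the groups overlapped. The means on the first probe were -0.43 ± 0.45 in TTX, -0.31 ± 0.44 in W15 and -0.26 ± 0.56 in W45 (SD, n = 3), not separated beyond their spread.

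Mog, a glycoprotein found on mature myelin, was above background on all arrays. Probe A_43_P12283 (chr20:1611776-1611835, plus strand) read -3.81, -4.13 and -4.25 in TTX, -3.59, -4.37 and -4.39 in W15, and -4.02, -4.08 and -4.03 in W45. The probe printed above read -4.00, -3.84 and -4.15 in TTX, -3.65, -3.79 and -4.11 in W15, and -4.19, -3.50 and -3.55 in W45. The groups overlapped on both. The arrays with the highest values differed between the probes: W15 replicate 1 on the first, and W45 replicates 2 and 3 on the second.

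The microglial markers Cx3cr1 and Aif1 were not detected. Cx3cr1 gave 2.60 to 5.14 signal units and Aif1 2.51 to 6.93 over the 9 arrays, whereas the dimmest probe well above background on an array gave 10.3 to 17.6. Neither gene can be compared between the groups, and a transcript below this limit cannot be told from none.

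**Figure D1:**
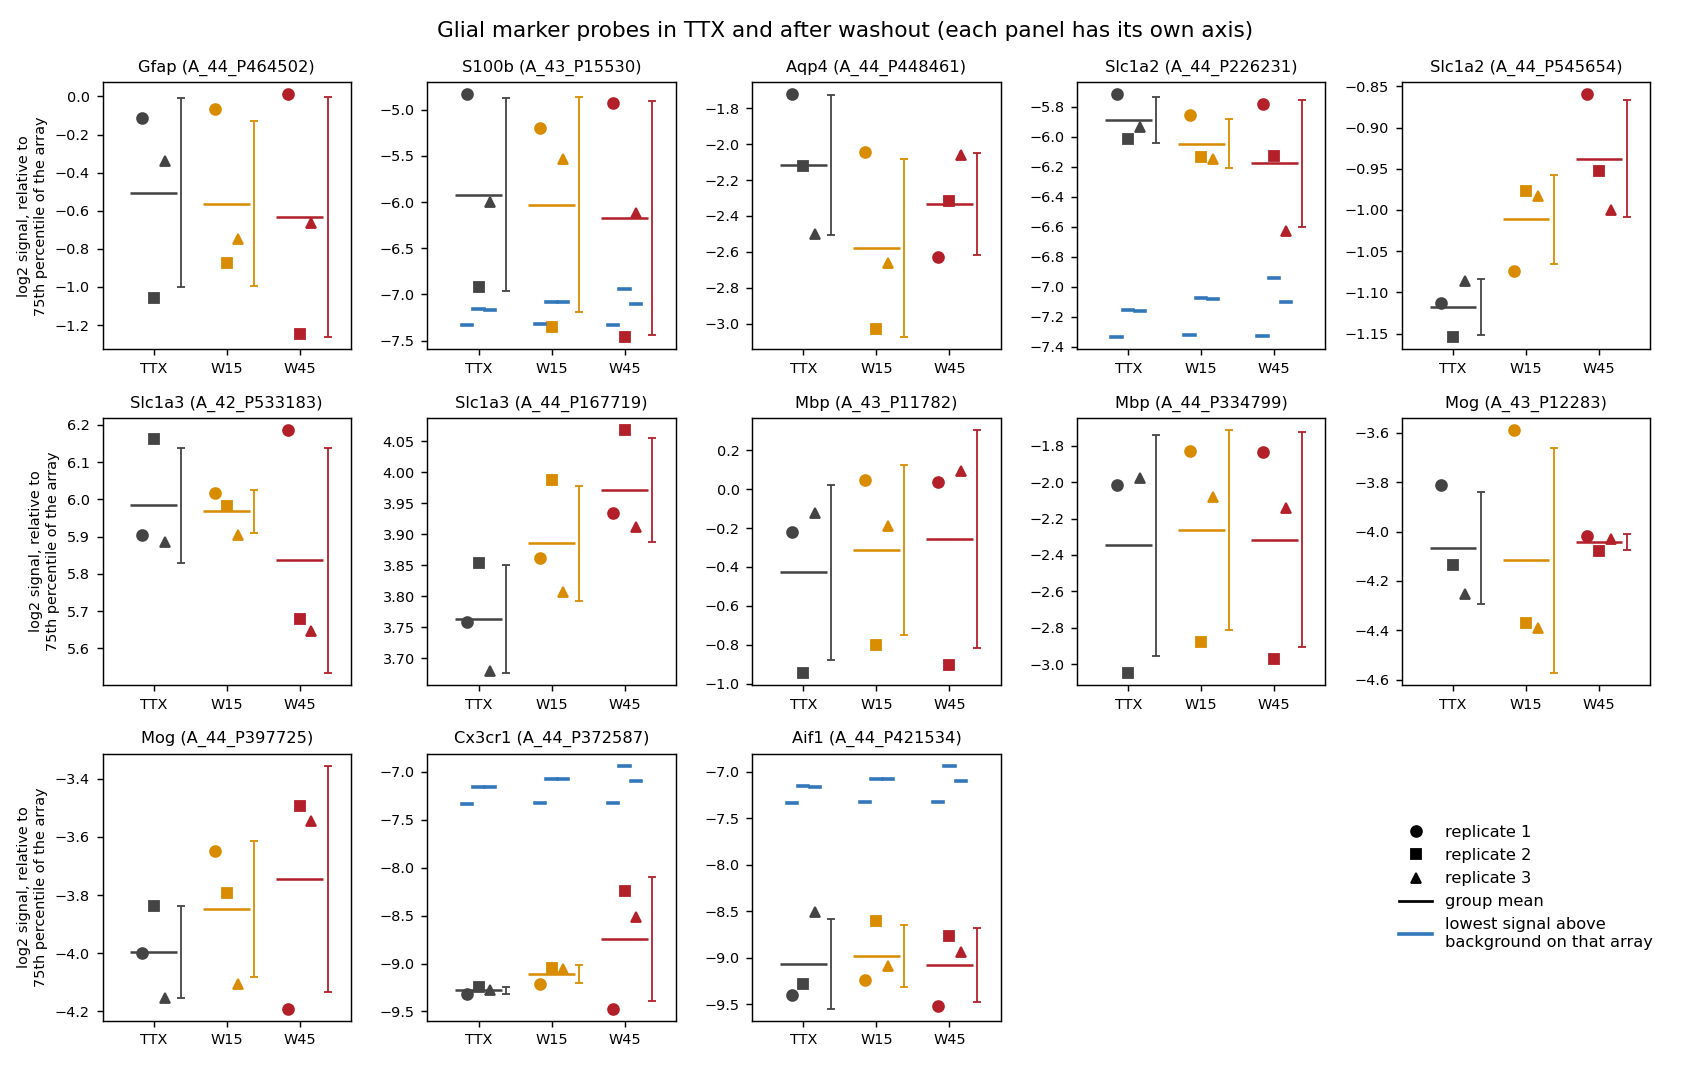
Log2 signal relative to the 75th percentile of the array (vertical axis, scaled separately in each panel) for the 13 probes of the 9 glial marker genes, by group (horizontal axis, TTX, W15 and W45). Points are arrays with a symbol for each replicate number, horizontal lines are group means, capped bars at their right are 1 SD (n = 3), and blue dashes, drawn in panels that reach below -5, are the dimmest signal well above background on that array. Squares (replicate 2) lie lowest in every group for Gfap, S100b and Mbp, and all points of Cx3cr1 and Aif1 lie below the blue dashes.

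The first comparisons asked whether glial transcripts changed within 15 or 45 min of TTX removal. None of the 11 tested glial probes passed the test. With limma over all 30321 probes above background, no glial probe had a Benjamini-Hochberg adjusted p under 0.05 in W15 against TTX, where 0.0198% of all probes did, in W45 against TTX (0.198%) or in W45 against W15 (0.129%). A count of 0 among 11 is close to these shares. The confidence intervals below give the sizes that remain possible in this fit, which has no term for replicate number. None of the glial probes reached an unadjusted p under 0.05 either, against 3.36, 6.37 and 6.61% of all probes. Median log2 fold changes of the glial probes and of all probes were -0.02 and 0.04 for W15 against TTX, 0.02 and 0.04 for W45 against TTX, and 0.06 and 0.01 for W45 against W15.

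At 15 min the difference furthest from 0 was that of Aqp4, at -0.46 on the log2 scale (0.726-fold, 95% confidence interval 0.467 to 1.13, adjusted p = 0.988 by limma). Gfap differed by -0.06 (0.960-fold, interval 0.547 to 1.69). S100b differed by -0.11, and its interval, 0.279 to 3.08-fold, was the widest. The tightest interval was that of the main Slc1a2 probe, 0.905 to 1.28-fold around a fold of 1.08. At 15 min it was the only one of the 11 tested glial probes whose arrays did not overlap those of TTX, all of them being higher, where 13.9% of all probes were separated in either direction and 9.46% as higher.

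At 45 min the smallest p belonged to Slc1a3 probe A_44_P167719, which differed from TTX by 0.21 (1.15-fold, interval 0.957 to 1.39, adjusted p = 0.824 by limma). The main Slc1a2 probe differed by 0.18 (1.13-fold, interval 0.952 to 1.35, adjusted p = 0.835). These were the 2 glial probes with every W45 array above every TTX array, where 8.02% of all probes were so separated and 11.6% were separated in either direction. The other probe of each gene had the opposite sign, -0.15 (0.903-fold, interval 0.695 to 1.17) for Slc1a3 and -0.29 (0.819-fold, interval 0.590 to 1.14) for Slc1a2, so neither transporter had a direction shared by its probes. Mbp differed by 0.17 on one probe (1.13-fold, interval 0.667 to 1.90) and 0.03 on the other. Mog differed by 0.02 and 0.25, and Gfap by -0.13 (0.915-fold, interval 0.521 to 1.61).

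Between the washout times the differences ran from -0.14 for S100b to 0.24 for Aqp4, and no glial probe separated W45 from W15, where 8.06% of all probes did. With slide as a block in the fit, Aqp4 differed from TTX by -1.04 at 15 min, a larger difference than without it. The glial differences from TTX at 45 min ran from -0.80 to 0.23 in that fit. Slide 2 held only TTX arrays and slide 3 none, so these differences rest on TTX replicate 1. That array had the highest Aqp4 value, -1.72. Within slide 1, which has 1 array of each group and allows no test, the differences from TTX ran from -0.94 to 0.13 at 15 min and from -0.90 to 0.28 at 45 min. The lowest values there belong to Aqp4 in both, and they use the same TTX array as the fit with slide as a block. Between the washout times the range was -0.08 to 0.76 within slide 1 and -0.52 to 0.35 within slide 3. Slide 1 pairs TTX replicate 1 with W15 replicate 3 and W45 replicate 1, so the replicate number differs between its arrays as well.

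**Figure D2:**
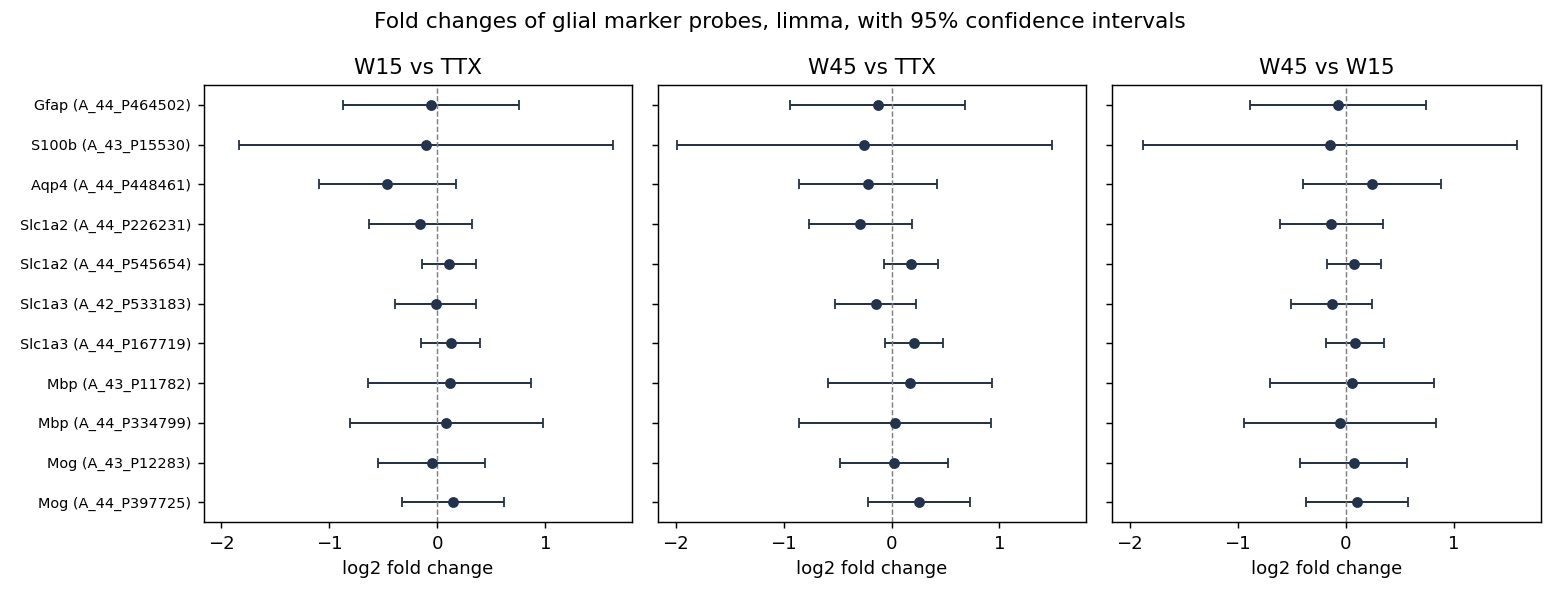
Log2 fold changes (horizontal axis) of the 11 tested glial probes (vertical axis) in W15 against TTX, W45 against TTX and W45 against W15, with 95% confidence intervals from limma as bars. Every interval includes 0, S100b has the widest and the main Slc1a2 probe (A_44_P545654) the narrowest.

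The arrays differed more by replicate number than by treatment for Gfap, S100b and Mbp. Replicate 2 was the lowest array in all 3 groups for 4 of the 11 glial probes, those of Gfap, S100b and both of Mbp, against 4.13% of all 30269 probes with a value on every array. The number carried by the array accounted for 89.95% of the sum of squares over 9 arrays for Gfap, 94.8% for S100b and 93.1 and 97.6% for the Mbp probes. Treatment group accounted for 1.48, 1.16, 3.14 and 0.525% of it in the same order. Over all probes the median share was 26.8% for the number and 23.0% for the group, and 1.11% of probes had 90% or more for the number. The labels do not say what a replicate number marks, so these shares are a description.

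Gfap averaged -0.06 on replicate 1, -1.06 on replicate 2 and -0.58 on replicate 3. For S100b these means were -4.99, -7.25 and -5.89, although the replicate 2 values rest partly on arrays not above background, and after normexp background correction the share of the number fell to 58.5% and replicate 2 was no longer lowest in every group for this gene. Mbp averaged -0.04, -0.88 and -0.07 on the first probe and -1.89, -2.97 and -2.07 on the second. Gfap and S100b were thus graded over the numbers, whereas Mbp had replicates 1 and 3 together and replicate 2 about 1 unit below them on the spliced probe.

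Between arrays of the same group on the same slide, the difference can be given as a size. Its sign was fixed, since replicate 2 was lowest in every group for these probes, so these values are no separate support. Gfap on replicate 2 was lower than on its neighbour by 0.72 in TTX (replicate 3), 0.81 in W15 (replicate 1) and 0.59 in W45 (replicate 3). The first Mbp probe differed in these same pairs by 0.82, 0.85 and 0.999, and the spliced one by 1.07, 1.05 and 0.83. S100b differed by 0.92 in TTX, and its other replicate 2 arrays were not above background, so no difference is given for them. The 75th percentile of the replicate 2 arrays was 1816 units in TTX and 1563 in W45, the lowest of each group, and 1751 in W15, where it lay between the others. Their share of probes above background was 74.4 to 76.7%, and W15 replicate 2 had the most outlier spots of the 9 arrays, 111. The part of these measures in the differences was not tested.

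Replicate 2 was not lowest throughout for the other 7 glial probes. For the main Slc1a2 probe the number accounted for 0.362% of the sum of squares and the group for 72.8%. For the Slc1a3 probes the number accounted for 27.6 and 40.9% and the group for 14.1 and 58.3%. Replicate 3 was lowest in each group on both. For Aqp4 the number accounted for 16.5%, and for the Mog probes for 61.3 and 19.4%, with no number lowest throughout. With no scaling between arrays, replicate 2 was lowest in every group for Mog probe A_43_P12283 too, and with quantile normalization for Slc1a2 probe A_44_P226231.

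**Figure D3:**
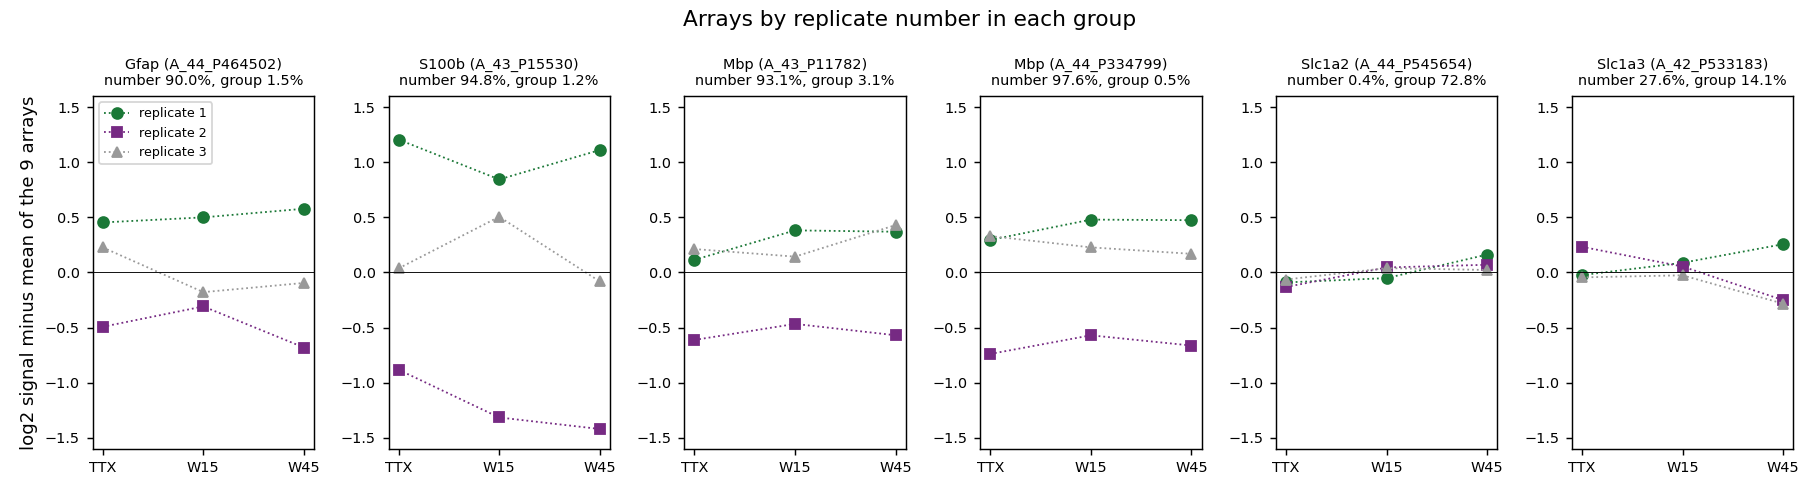
Log2 signal minus the mean of the 9 arrays (vertical axis) in each group (horizontal axis) for 6 glial probes, with dotted lines joining arrays that carry the same replicate number and the shares of the sum of squares taken by number and by group above each panel. Replicate 2 lies lowest in all groups for Gfap, S100b and both Mbp probes, while for the main Slc1a2 probe (A_44_P545654) the 3 numbers lie together.

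Marker lists of 9 kinds of genes, none of which holds the 9 glial genes, show which other transcripts were detected, beside the 68.6% of all probes that were above background on all 9 arrays. A gene with several probes was counted by the probe above background on the most arrays. The list counts are thus per gene, whereas the 68.6% is per probe and includes probes matched to no gene symbol, so they are not strictly comparable. The glutamate uptake and potassium buffering list shares genes with the astrocyte list, among them Gja1, Glul and Kcnj10. The cells carry neuronal transcripts, as labelled: 25 of 25 neuron markers on the array were above background on all 9 arrays, among them Rbfox3 (NeuN), Map2, Snap25, Syt1 and Tubb3. So were 27 of 29 other astrocyte markers, 14 of 14 oligodendrocyte precursor markers and 18 of 23 other oligodendrocyte markers. Aldh1l1, Aldoc, Glul and the gap junction gene Gja1 were detected on every array, as were Pdgfra and Olig2 of precursors and Mag and Cnp of myelinating cells. The dividing-cell list had 12 of 12 on all arrays, including Mki67.

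Microglial and macrophage markers were detected least, 10 of 26 on all 9 arrays, 10 on some and 6 on none. Itgam (CD11b) was above background on 1 array, C1qa on 3, Csf1r on 7 and P2ry12 on 8. Cd68, a lysosomal protein of macrophages, and Trem2, a microglial surface receptor, were above background on all 9. Of 17 endothelial, mural and fibroblast genes 12 were detected throughout, including Col1a1 and Lum, of reactive astrocyte genes 14 of 17, and of glutamate uptake and potassium buffering genes 7 of 10.

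**Figure D4:**
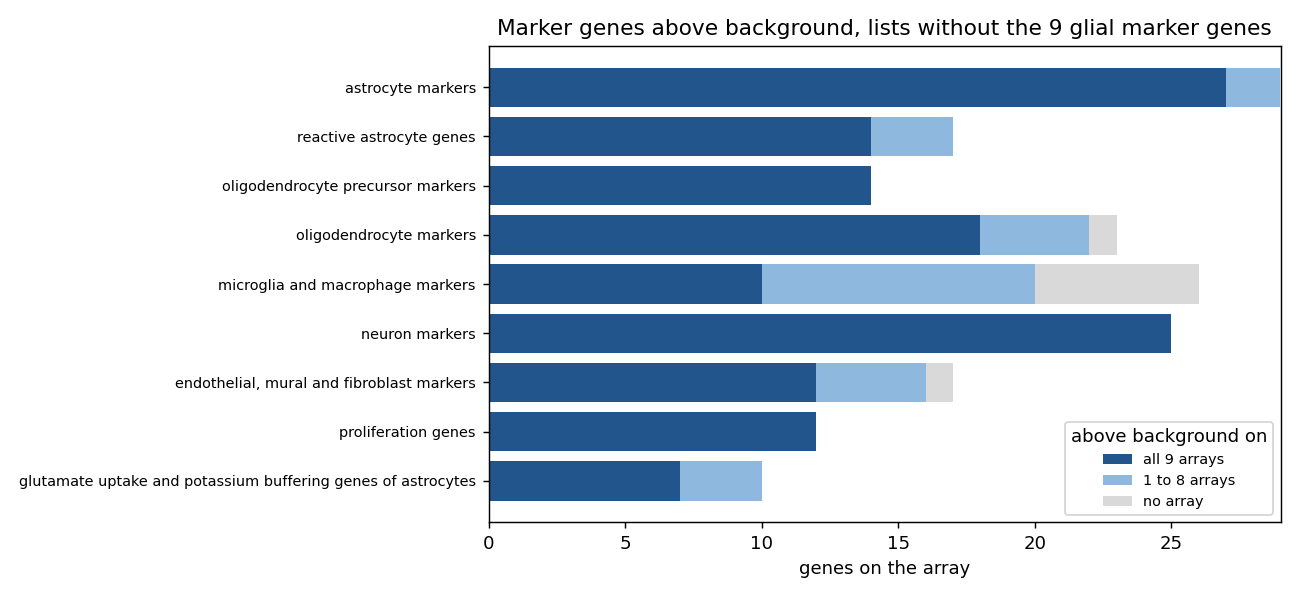
Numbers of genes (horizontal axis) in 9 marker lists (vertical axis) that were well above background on all 9 arrays, on 1 to 8 arrays or on no array, with the 9 glial marker genes left out. The neuron, precursor and proliferation bars are filled by genes above background throughout, and the microglia and macrophage bar has the most genes, 6, above background on no array.

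None of the 145 tested genes of these lists passed an adjusted p under 0.05 by limma in any comparison, and 2, 8 and 7 had an unadjusted p under 0.05 in W15 against TTX, W45 against TTX and W45 against W15, beside 3.36, 6.37 and 6.61% of all probes. The differences below are those of the genes chosen by the naming rule and are values only. The list medians lay between -0.04 and 0.18 for both washout times against TTX, beside 0.04 for all probes. Among astrocyte genes, Sox9, a glial transcription factor, and Aldoc, a glycolytic enzyme of astrocytes, differed most between W45 and W15, by 0.53 ± 0.22 and -0.43 ± 0.17 (log2, SE). At 15 min against TTX they had the opposite signs, -0.13 and 0.17. Between W45 and TTX, Sox9 differed by 0.40 ± 0.22, Aldoc by -0.27 ± 0.17 and Cst3, a secreted protease inhibitor, by 0.44 ± 0.20. The neutral amino acid transporter Slc38a3, which exports glutamine from astrocytes, differed by 0.36 ± 0.12 and the potassium channel Kcnj10 by 0.29 ± 0.19. Kcnj10 was above background on only 7 arrays. Its lowest value was -7.39, where the dimmest probe above background on an array lay at -7.335 to -6.942, so its difference is uncertain. Glutamine synthetase, Glul, differed by -0.29 ± 0.13 at 15 min. Among precursor genes Olig2 differed by 0.47 ± 0.19 and Tnr by 0.56 ± 0.22 at 45 min, and Cspg5 by -0.97 ± 0.39 at 15 min. In the oligodendrocyte list the largest values were 0.52 ± 0.58 for Cldn11 at 45 min, 0.44 ± 0.35 for Mobp at 15 min and 0.47 ± 0.38 for Ugt8 between W45 and W15. In the microglial list Cd68 differed by -0.71 ± 0.29 and Trem2 by 0.52 ± 0.18 at 45 min, in opposite directions, and C1qa was above background on 3 arrays, so no fold change is given for it. The neuronal gene Reln, an extracellular glycoprotein of Cajal-Retzius cells and interneurons, differed by 0.52 ± 0.17 at 45 min, with an adjusted p of 0.64.

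The remaining lists gave values of like size. Among reactive astrocyte genes Tm4sf1 differed by 0.47 ± 0.18 and Clcf1, a cytokine, by -0.41 ± 0.31 between W45 and W15, and Lcn2, an iron-carrier protein of reactive astrocytes, by 0.36 ± 0.30 at 15 min. The neuronal cytoskeletal genes Map2 and Nefl differed by 0.45 ± 0.36 at 15 min and 0.35 ± 0.16 at 45 min. In dividing-cell genes, Birc5 differed by -0.61 ± 0.39 at 15 min, and Mki67 and Cenpf by 0.34 ± 0.24 and 0.33 ± 0.15 at 45 min. The collagen gene Col1a1 differed by 0.36 ± 0.17 at both washout times, Lum by 0.29 ± 0.36 at 15 min, Abcc9 by -0.44 ± 0.32 between W45 and W15, and the cystine-glutamate exchanger Slc7a11 by -0.31 ± 0.30 at 15 min. Slc7a11 was dim, with means of -5.39, -5.97 and -5.17 on replicates 1, 2 and 3, so its difference is less certain.

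The order of the replicate numbers was also read for the marker lists, by the brightest probe of each gene. Replicate 2 was lowest in all 3 groups for 7 of 20 tested oligodendrocyte markers (35%), beside the 4.13% of all probes. Among these were Mag, Cnp, Ugt8, Aspa, Enpp6 and Nkx6-2, which were looked up after the values of the 9 glial genes were seen. It was lowest for 3 of 14 precursor markers (Bcas1, C1ql1 and Matn4), and for 1 of 29 astrocyte markers (Ntsr2), 1 of 14 reactive astrocyte genes (Cd44) and 1 of 25 neuron markers (Thy1). Among microglial, endothelial and dividing-cell genes it was lowest for none of 15, 12 and 12. Other lists had genes ordered by number in other ways. Replicate 1 was lowest in all groups for 6 of 25 neuron markers and 4 of 14 reactive astrocyte genes, against 2340 of 30269 probes. It was highest in all groups for 4 of 12 dividing-cell genes, 4 of 14 precursor, 4 of 20 oligodendrocyte and 4 of 29 astrocyte markers, against 6.61% of all probes. Mag, a myelin adhesion protein, averaged -2.16, -3.30 and -2.45 on replicates 1, 2 and 3. The astrocyte gene Aldh1l1 averaged 2.59, 1.98 and 2.12, with replicate 1 highest in every group.

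The summed linear signal of the 20 oligodendrocyte genes, in multiples of the 75th percentile, was 25.5, 19.5 and 20.8 on TTX replicates 1, 2 and 3, 29.5, 19.2 and 22.3 on those of W15 and 27.5, 23.2 and 19.5 on those of W45. Replicate 1 was highest in each group, and in W45 replicate 3 was below replicate 2. The 29 astrocyte genes summed to 670 to 788 in TTX, 778 to 830 in W15 and 803 to 954 in W45, and the 25 neuron genes to 499 to 577, 530 to 571 and 536 to 637. Linear sums weigh the brightest genes most, such as Apoe, Cst3 and Fabp7, with TTX means of 7.10, 7.10 and 7.06. The median log2 fold change of the astrocyte list at 45 min was 0.14, beside 0.04 for all probes, and none of its genes was called. The part of cell composition in the Gfap, S100b and Mbp differences was not tested.

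Genes whose levels ran most like those of each glial gene over the 9 arrays were found by Pearson's r among 11688 genes with a known symbol, provisional symbols left out, using the brightest probe of each gene. All values share arrays and scaling, and with 9 arrays and so many genes high values are common, so they are given as a description. Among the nearest to Gfap were Lpar1 (r = 0.94), Cdh6 (0.93), Cmbl (0.93) and Cd44 (0.92), of which Lpar1, a lysophosphatidic acid receptor, is known from myelinating cells. Nearest to Mbp were Fbln2 (0.97), Rpl35a (0.97), Mrps10 (0.95), Chst5 (0.94) and Enpp6 (0.94), the last an enzyme of newly formed oligodendrocytes. Nearest to Mog were Ceacam20 (0.98), Hbe2 (0.96), Slc22a13 (0.96), Lrp8 (0.96) and Tert (0.95), none of them a gene of the myelin list.

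Aqp4 ran with Atpaf1 (0.98), Ewsr1 (0.98), Tbc1d8b (0.98), Srsf10 (0.97) and Hnrnpu (0.97), among them the RNA-binding proteins Ewsr1, Srsf10 and Hnrnpu, and none in the astrocyte lists. Slc1a2 ran with Synj2bp (0.95), Lonrf2 (0.93), Tuba4a (0.93), Hivep2 (0.90) and Fam149b1 (0.90). Slc1a3 ran with Ppp4r1 (0.91), Acot7 (0.91), Sec23a (0.90), Tipin (0.89) and Psmb3 (0.88).

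Correlations over the arrays were computed for the astrocyte genes above background on all 9, which leaves out S100b, whose replicates were ordered like those of Gfap. Among the 6 pairs of Gfap, Aqp4, Slc1a2 and Slc1a3, each by its brightest such probe, Pearson's r ran from -0.585 to 0.355. The strongest was the negative relation of Aqp4 and Slc1a2, with r = -0.585 (exact permutation p = 0.098, adjusted over 6 pairs 0.587) and Spearman's rho = -0.60 (exact permutation p = 0.0968, adjusted 0.581). It was -0.548 without the 2 arrays farthest from the median of Aqp4. Within groups, as deviations from the group means, it was -0.762 (exact permutation p = 0.0417, adjusted 0.25). Gfap and Slc1a3 had r = 0.355 (exact permutation p = 0.343, adjusted 0.907; rho = 0.367, p = 0.336), which became -0.005 without the 2 arrays farthest from the median of Gfap. Gfap and Aqp4 had r = 0.235 (exact permutation p = 0.539, adjusted 0.907; rho = 0.267, p = 0.493), and 0.352 without the 2 arrays farthest from the median of Gfap. No pair passed the adjusted threshold, and slides held at most 4 arrays, too few for a value within a slide.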

How the data were processed

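RNA from 9 samples was labelled with Cy3 and hybridised to 1-colour Agilent arrays, starting from 500 ng of total RNA. Per the submitters' processing notes, signals came from Agilent Feature Extraction 9.5. The deposited intensity is the processed signal, which per the file headers is corrected for background; the deposited value table holds the same numbers (largest difference 0). Control spots and outlier flags were left out, log2 intensities were taken relative to the 75th percentile of each array, and spots of a probe were averaged. Probes that were above background throughout at least 1 group (3 arrays), with at most 1 missing array, were tested with limma 3.58.1 in R 4.3.3, with 1 mean per group, 6 residual degrees of freedom, Benjamini-Hochberg adjustment over 30321 probes and a threshold of 0.05. In simulated data for W45 against TTX (30269 probes) the test recovered 53 of 100 probes with a log2 change of 1 and 91 of 100 with a change of 2. It also called 3 unchanged probes. The simulated noise was independent between arrays, with no pattern by replicate number, and more probes were changed than were called in the data. These rates may therefore not hold for the glial probes. Correlations between astrocyte genes used exact permutations.

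Named genes were all probes of the 9 glial genes, set defining markers and, of each list with no gene called, up to 3 with the largest log2 fold change in any comparison; other names were chosen after their values were seen. The 9 genes and the marker lists were chosen with earlier results of these data known. The number of arrays limits the precision. Probe positions are those in the files; whether a probe lies in an exon or UTR was not looked up. Some genes of the lists are not reported here.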

Additional observations from a re-analysis of the deposited data

How the results depend on the processing

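No glial probe was called by limma in any of the 21 alternative analyses of each comparison, which changed background correction, scaling, filter, slide or replicate terms, spread model, groups fitted or left out 1 array. The lowest adjusted p was 0.546 for W15 against TTX, 0.296 for W45 against TTX and 0.355 for W45 against W15. At an unadjusted p under 0.05 there was at most 1 glial probe in W15 against TTX (in 3 alternatives), 3 in W45 against TTX (in 1) and 0 in W45 against W15. The count of 0 also held with each array left out in turn. Of the 11 fitted directions 10 turned in at least 1 alternative in each comparison, none of them called. The exception against TTX was Aqp4, which ran from -1.04 to -0.19 at 15 min and from -0.90 to -0.02 at 45 min. The values furthest from 0 come from settings that rest on TTX replicate 1. Its lowest adjusted p by limma was 0.713 at 15 min and 0.554 at 45 min. Between W45 and W15 the exception was Slc1a3 probe A_44_P167719. Counts over all probes moved more, from 0 to 10 (6 as reported), 25 to 203 (60) and 16 to 232 (39) in the same order: without W45 replicate 1, 203 probes were called in W45 against TTX against 60 with it, and 232 in W45 against W15 against 39; the cause was not tested. Without scaling the median log2 fold change of all probes was -0.16, -0.22 and -0.05, and after normexp correction it was 0.20, 0.12 and -0.19. With slide as a fixed block the comparisons with TTX rest on TTX replicate 1, so their counts are not read as a result.

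With replicate number as a block, 0 glial probes were called in each comparison, and 5, 51 and 30 of all probes. In that fit the SE of the W45 against TTX difference was 0.157 for Gfap, 0.205 for S100b and 0.127 and 0.121 for the Mbp probes. Without the block it was 0.361, 0.769, 0.336 and 0.396, so the intervals given above for these genes are wider than with it. The labels do not say what a number marks, so the fit without it was kept. Deviations from the group means of same-numbered arrays correlated at 0.0599 to 0.382 over 9 pairs, and 9 of 9 arrays correlated best with their own number, a hint from the data and not from the design.

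Replicate 2 was lowest in all groups for 3 glial probes after normexp correction, when S100b no longer was, and for 5 with quantile normalization or with no scaling between arrays, settings chosen after seeing the data. No correlation between astrocyte genes passed the threshold under quantile normalization, as deviations from group means or after normexp correction; that of Aqp4 and Slc1a2 ran from -0.762 to -0.164. Of S100b, 2 of 9 arrays are only bounds, and the microglial genes Cx3cr1 and Aif1 lie below the detection limit.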
